A study of Mus musculus with 12 samples.

Results

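Brains of adult mice lacking both Usp18 and Ifnar1 were set against brains of wild-type (WT) mice to see how closely the transcripts of the double knockout match those of WT, and whether any lie below. The comparison holds 6 of the 12 arrays of the series, 3 titled USP18ko:IFNARko and 3 titled WT. The other 6 arrays, 3 of USP18ko and 3 of IFNARko, serve to choose genes and as reference levels, and they also enter the choice of probe set and the spread behind each p-value and interval. All mice were untreated and kept free of specified pathogens, and RNA came from lysates of the total brain. USP18ko mice lack Usp18 with the receptor gene Ifnar1 intact, IFNARko mice lack Ifnar1 with Usp18 intact, USP18ko:IFNARko mice lack both, and WT mice carry both genes. The labels give no strain, sex or exact age, do not say how the alleles were made, and do not say whether replicates were separate animals. The p-values therefore refer to the spread among these arrays, part or all of which may be technical. Levels are log2 signals per gene, so a difference of 1 is a doubling of signal, and 12393 genes were compared with limma. In a whole-brain lysate, fewer cells of a type and less RNA per cell cannot be told apart.

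Type I interferons bind a receptor made of the chains IFNAR1 and IFNAR2, and the kinases on these chains activate transcription factors that switch on interferon-stimulated genes through a DNA motif called the interferon-stimulated response element. USP18 is itself an interferon-stimulated protein. It removes the ubiquitin-like protein ISG15 from other proteins, and it also sits on IFNAR2 and damps signalling from the receptor. In the brain, microglia are among the cells known to depend on this brake.

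The arrays were checked before any comparison. Correlations over all genes among the 6 arrays ran from 0.982 to 0.998. Xist, the transcript of the inactive X chromosome, read 11.21, 10.34 and 11.34 in the double knockout arrays and 10.17, 5.26 and 5.11 in the WT arrays. Eif2s3y, a Y-linked gene, read 3.05, 7.16 and 3.22 in the double knockout and 3.18, 8.30 and 8.14 in WT. The groups were therefore not balanced in these sex-linked transcripts, and double knockout replicate 2 carried both signals. The median over genes of the SD between replicates was 0.078 in the double knockout, 0.150 in WT, 0.113 in USP18ko and 0.191 in IFNARko. IFNARko replicate 1 had a 3' minus 5' difference of the beta-actin control probe sets of 1.48, against 0.20 to 0.54 in the other 11 arrays. The mean level of 25 neuron and synapse genes ranged from 9.68 to 9.81 over double knockout arrays and from 9.62 to 9.79 over WT, and that of 16 astrocyte markers from 9.09 to 9.21 and from 9.03 to 9.44. Levels of different probe sets cannot be set against each other and no detection calls were used, so these lists compare arrays and do not test the tissue label. The myelin list was uneven, since the myelin gene Mobp read 5.87, 9.55 and 3.87 in the WT arrays and 7.32, 7.45 and 7.31 in the double knockout arrays.

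The targeted genes came first. Ifnar1 read 6.56, 6.56 and 6.68 in the double knockout arrays and 8.21, 7.44 and 7.85 in the WT arrays, so the groups did not overlap. It fell by 1.23 (SE 0.17, adjusted p = 0.0394). The IFNARko arrays read 6.24, 6.59 and 6.47, and the USP18ko arrays stayed at WT level with 8.01, 7.76 and 7.97. Usp18 read 3.50, 3.71 and 3.69 in the double knockout and 4.36, 4.36 and 4.04 in WT, a difference of -0.62 (SE 0.12, adjusted p = 0.304) that did not pass. Its IFNARko arrays, whose Usp18 gene is intact, read 3.55, 3.67 and 3.53. Usp18 signals thus lay below WT in every array that lacked either gene. The position of either probe set relative to the deletion was not known here, so a reading near WT would not have spoken against a label.

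Few genes set the double knockout apart from WT. Of 12393 genes, 2 (0.0161%) passed at an adjusted p under 0.05, and both were lower in the double knockout. Without adjustment 507 genes (4.09%) had a p under 0.05, 318 lower (2.57%) and 189 higher (1.53%), and 14 genes (0.113%) differed by at least 1. All 3 double knockout arrays lay below all 3 WT arrays for 1276 genes (10.3%) and above them for 506 (4.08%). Differences were small throughout, with 99.1% of all genes within 0.5 of WT. On the X chromosome 15 of 402 genes (3.73%) had an unadjusted p under 0.05, close to the share over all genes. Of these 15, 11 were higher and 4 lower, while over all genes more were lower than higher.

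Pnpla3, which encodes a lipid droplet lipase, was the other gene called. It read 5.62, 5.53 and 5.40 in the double knockout arrays and 6.97, 7.06 and 6.99 in the WT arrays. The WT mean was 7.01 ± 0.05 and the double knockout mean 5.52 ± 0.11 (SD, n = 3 arrays per group), and the gene fell by 1.49 (SE 0.20, adjusted p = 0.0394 by limma). The USP18ko arrays, at 6.77, 7.03 and 6.70, lay near WT, and the IFNARko arrays, at 6.30, 5.27 and 5.62, lay below both. The low groups were thus those without Ifnar1. Both calls rested on a narrow margin. When arrays were left out in turn, Ifnar1 still passed only on removal of WT replicate 2 or of IFNARko replicate 1, and was -1.43 to -1.04 over the 12 fits. Pnpla3 still passed only on removal of IFNARko replicate 1 or 2, and was -1.54 to -1.43. With the replicate number as a block both had an adjusted p of 0.119, and neither changed direction in any alternative fit.

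The next genes by p did not pass. Tmem87a, which encodes a membrane protein of the Golgi, read 5.76, 5.73 and 5.82 in the double knockout and 7.74, 8.0 and 7.50 in WT, a difference of -1.98 (SE 0.30, adjusted p = 0.0880). Its USP18ko arrays were spread over 7.26, 5.65 and 6.92, and its IFNARko arrays read 6.17, 6.03 and 6.34. It passed without USP18ko replicate 2 (adjusted p = 2.25e-04) and with only the 2 groups fitted (adjusted p = 0.00240). The WT arrays were the highest for this gene and all 6 arrays without Ifnar1 were lower. Alox8, an arachidonate lipoxygenase gene, read 5.23, 5.19 and 5.16 in the double knockout and 4.65, 4.60 and 4.30 in WT, with IFNARko at 5.32, 5.17 and 5.06. Epdr1, an ependymin-related gene, read 9.18, 9.05 and 8.99 against 9.61, 9.89 and 9.56 in WT. Both had an adjusted p of 0.234 (0.68, SE 0.12, and -0.61, SE 0.11), with no overlap of the groups. The others among the 10 smallest p-values were Taf5l, a gene of histone acetyltransferase complexes (-0.84), Emp1, an epithelial membrane protein gene (0.58), Dera, a deoxyribose-phosphate aldolase gene (0.89), and 4930507D05Rik (-0.42), none of which passed. Among genes at an unadjusted p under 0.05 without overlap, large differences also belonged to the unconventional myosin gene Myo7a (1.93), Mab21l2 (1.00), the class I gene H2-T24 (0.89), Plekhj1 (0.87) and, in the other direction, 3110040N11Rik (-1.16). For Myo7a the WT arrays themselves ran from 3.94 to 6.57 while the double knockout arrays read 7.04 to 7.14.

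**Figure D1:**
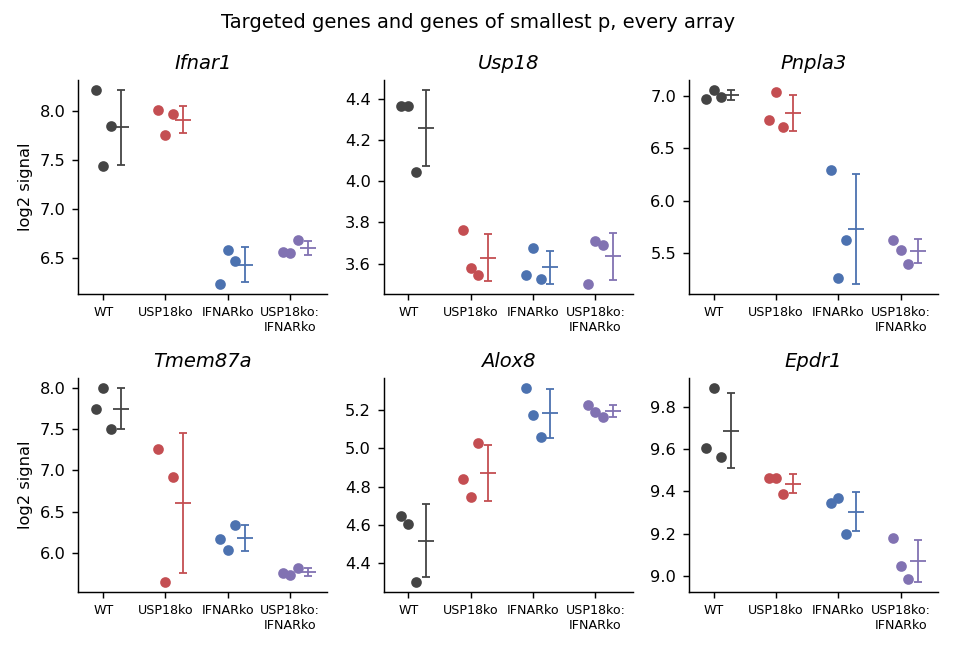
Log2 signal (vertical axis, scaled per gene) of the 2 targeted genes and 4 of the genes of smallest p in every array of the 4 genotypes (horizontal axis); points are arrays, dashes with bars are the mean and SD of 3. For Ifnar1, Pnpla3 and Tmem87a the double knockout points sit at 5.40 to 6.68, below all WT points.

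The genomic neighbours of the 2 targeted genes were described next. By gene order in RefSeq's annotation of GRCm38.p6, 50 measured genes surround Usp18 and 50 surround Ifnar1, 25 on each side. Around Usp18, 7 (14%) had an unadjusted p under 0.05 and 9 (18%) had no overlap of the groups. C3ar1, which was 1.55 above WT in USP18ko, is in both counts, and Apobec1, which was 1.74 above, is in the second. Around Ifnar1, 4 (8%) had an unadjusted p under 0.05 and 10 (20%) had no overlap, against 4.09% and 14.4% of all genes. No neighbour passed. Tuba8, a tubulin gene next to Usp18, differed by -0.44 from WT here by -0.46 in USP18ko and by -0.29 in IFNARko, whose arrays (5.93, 5.76 and 5.78) also lay under all WT arrays. Cbr3, a carbonyl reductase gene 19 genes from Ifnar1, differed by -0.65 here, by -0.62 in IFNARko and by 0.08 in USP18ko. These were named after their values were seen. The comparisons share the WT arrays.

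How fully interferon-responsive transcripts return to WT was then examined. To keep the choice of genes apart from the difference described, genes were taken that were higher in USP18ko than in IFNARko, at an adjusted p under 0.05 and by at least 1, so that WT and double knockout means did not enter the choice. Their arrays did enter through the shared spread of the fit, and 127 to 134 genes were chosen when single WT or double knockout arrays were left out. This gave 132 genes (1.07% of 12393). The last gene inside the limit, Ctsz, differed by 1.01 between USP18ko and IFNARko and by -0.08 between the double knockout and WT. Just outside it was Plvap, with 0.99 and 0.26. Of the 132, 112 also had a USP18ko mean at least 1 above WT and are called raised genes here. That second condition favours genes with low WT signals. The other 20 had a median difference from WT of 0.64 in USP18ko and of -0.51 in IFNARko. They include Pnpla3 and Ifnar1, the only members called in the double knockout against WT.

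Several of the strongest raised genes share a promoter motif, shown here because their transcripts moved together across genotypes. The windows are RefSeq's, on GRCm38.p6, from 250 bases before the transcript start to 50 after it, for the 4 raised genes with the largest USP18ko minus IFNARko difference whose window holds the motif. Capitals mark each match to TTTCNNTTTC on either strand. Ifit1, an antiviral RNA-binding protein gene, lies at chr19:34640639-34640938 (plus strand), Cxcl10, a T cell attractant gene, at chr5:92348840-92349139 (minus strand), Rsad2, which encodes the antiviral enzyme viperin, at chr12:26456403-26456702 (minus strand), and Ifit3, a relative of Ifit1, at chr19:34583279-34583578 (plus strand).
Ifit1: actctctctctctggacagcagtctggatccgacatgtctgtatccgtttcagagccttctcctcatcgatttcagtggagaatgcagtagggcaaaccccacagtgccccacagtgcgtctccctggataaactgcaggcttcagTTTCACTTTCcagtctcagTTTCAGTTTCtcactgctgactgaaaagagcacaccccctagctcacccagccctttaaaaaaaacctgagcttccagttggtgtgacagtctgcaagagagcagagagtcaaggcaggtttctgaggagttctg
Cxcl10: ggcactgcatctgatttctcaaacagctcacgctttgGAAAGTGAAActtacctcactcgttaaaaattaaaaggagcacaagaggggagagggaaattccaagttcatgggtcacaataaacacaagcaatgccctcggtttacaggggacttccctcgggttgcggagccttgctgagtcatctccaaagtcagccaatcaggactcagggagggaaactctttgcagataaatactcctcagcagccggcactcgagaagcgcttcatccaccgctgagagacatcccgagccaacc
Rsad2: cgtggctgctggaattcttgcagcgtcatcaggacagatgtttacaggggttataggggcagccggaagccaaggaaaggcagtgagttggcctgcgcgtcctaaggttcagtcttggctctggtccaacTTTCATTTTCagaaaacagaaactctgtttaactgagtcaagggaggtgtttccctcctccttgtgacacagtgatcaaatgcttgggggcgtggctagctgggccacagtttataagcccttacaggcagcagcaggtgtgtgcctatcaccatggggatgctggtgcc
Ifit3: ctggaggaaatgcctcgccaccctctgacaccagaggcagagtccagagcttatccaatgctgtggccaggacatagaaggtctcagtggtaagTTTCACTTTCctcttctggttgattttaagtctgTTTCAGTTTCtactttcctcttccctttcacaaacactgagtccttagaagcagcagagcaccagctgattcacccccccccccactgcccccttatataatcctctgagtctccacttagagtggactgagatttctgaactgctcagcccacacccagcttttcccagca
Ifit1 and Ifit3 held 2 matches each, and Cxcl10 and Rsad2 held 1 each. Of the 85 raised genes with a window in the table, 24 (28.2%) held a match, against 380 of 9887 genes tested (3.84%) and 1131 of all 32851 windows (3.44%). The shorter motif TTCNNNGAA, the gamma-activated site, which reads the same on both strands, was in 16 (18.8%) of the raised genes and 835 (8.45%) of the genes tested. Pnpla3 and Ifnar1 both had windows and held no match to the first motif. A match is a description of letters and not evidence of binding.

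The strongest raised genes returned to WT level or slightly under it in the double knockout. Ifit1 read 3.66, 3.15 and 3.31 in the double knockout and 3.69, 3.90 and 3.52 in WT, against 8.52, 8.36 and 8.84 in USP18ko. Its double knockout and WT arrays overlapped, with a difference of -0.33 (SE 0.20, adjusted p = 0.995). Cxcl10 read 3.52, 3.49 and 3.84, against 3.94, 4.04 and 3.78 in WT, a difference of -0.30 with overlap. Rsad2 read 6.02, 5.68 and 6.31, against 6.51, 6.80 and 6.40 in WT, and Ifit3 read 4.78, 4.98 and 5.07, against 5.18, 5.53 and 5.16. For these last genes all double knockout arrays lay under all WT arrays, by -0.56 (SE 0.23) and -0.35 (SE 0.13) in the mean. Neither passed (adjusted p = 0.995 by limma). The other Rsad2 probe sets, of lower signal, differed by -0.15 and -0.44. The other 4 of the 8 largest were Ifi27l2a (-0.50), Ifi202b (-0.43), the chemokine gene Ccl12 (-0.40) and Iigp1 (-0.45), an immunity-related GTPase gene whose second probe set differed by 0.0076. Without WT replicate 2, Ifi27l2a was -0.13 and Ccl12 -0.20, and without WT replicate 1 they were -0.81 and -0.64. None of these 8 was above WT in its mean. IFNARko differed from WT in these 8 by -0.33, -0.18, -0.67, -0.48, -0.54, -0.85, -0.26 and 0.25 in the order in which they are named, with the WT arrays shared by both comparisons. The Iigp1 value of 0.25 includes IFNARko replicate 1 at 5.72, beside 3.94 and 3.93 in replicates 2 and 3.

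**Figure D2:**
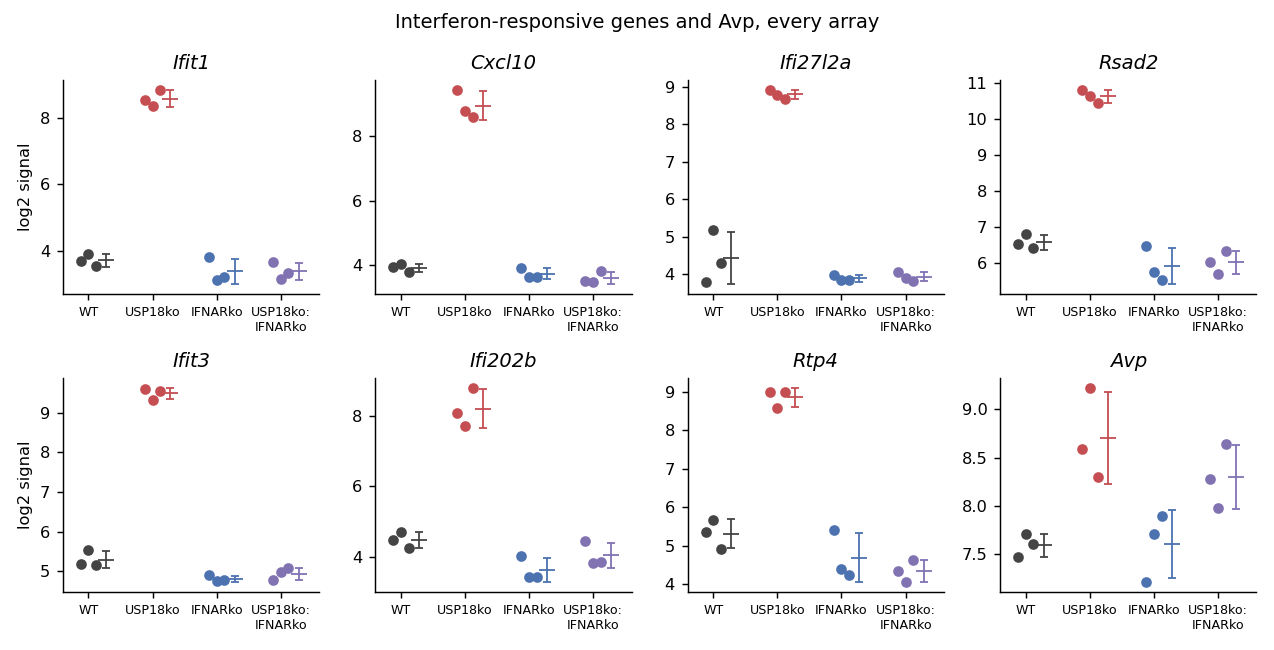
Log2 signal (vertical axis, scaled per gene) of 6 of the most strongly raised genes, of Rtp4 and of Avp in every array of the 4 genotypes (horizontal axis); points are arrays, dashes with bars are the mean and SD of 3. Double knockout points of Ifit1 and Cxcl10 overlap with WT, those of Rsad2, Ifit3 and Rtp4 lie below WT, and those of Avp lie above it.

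Over all 112 raised genes the return was near complete. Their median difference from WT was 1.81 in USP18ko and -0.23 in the double knockout (lowest -0.98, highest 0.71), beside a median of -0.02 over all genes. As a share of the USP18ko rise on the log2 scale, the median absent from the double knockout was 111% (110.7%), where 100% is the WT level, with quartiles of 106% and 114%. The value exceeded 100% in 103 of the 112 genes and was under 90% in 4. In 109 of them (97.3%, against 99.1% of all genes) the double knockout lay within 0.5 of WT. For the same number the 95% interval of the difference ended below 50% of the USP18ko rise. In 46 it ended below 10% of it. None of the 112 passed against WT in either direction. Against USP18ko, whose arrays were used in choosing the genes, 109 were called lower (1.48% of all genes were), which is given as a description.

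**Figure D3:**
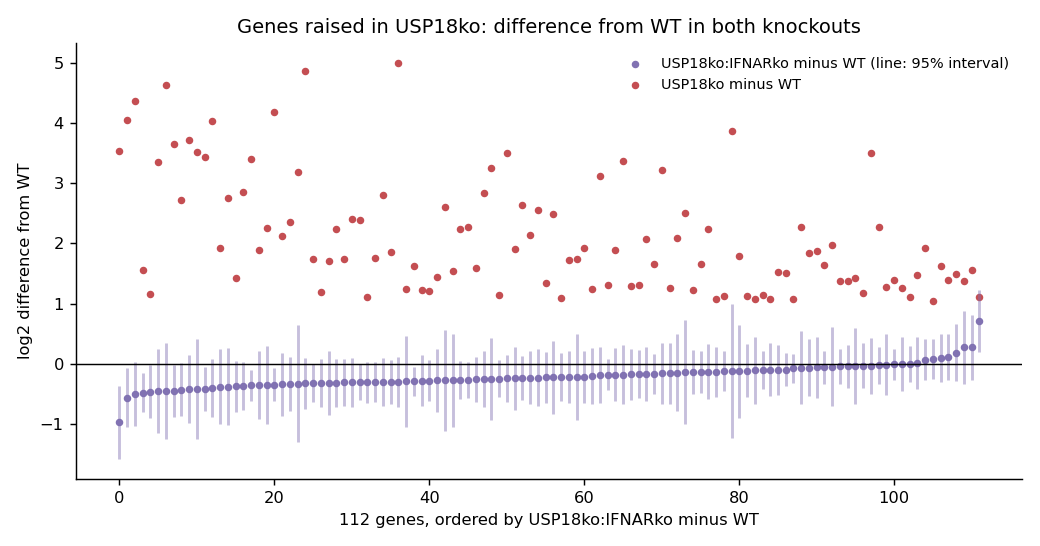
Difference from WT on the log2 scale (vertical axis) of the 112 raised genes, ordered by the double knockout value (horizontal axis); purple points are the double knockout with 95% interval lines, red points USP18ko. Purple points run from -0.98 to 0.71 and sit close to or under 0 while red points start at 1.04.

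The exceptions were few. Avp, which encodes the hormone vasopressin, read 8.28, 7.98 and 8.64 in the double knockout and 7.46, 7.70 and 7.60 in WT, so the groups did not overlap. The difference was 0.71 (SE 0.24, adjusted p = 0.995), with 36.2% of the USP18ko rise absent, and USP18ko read 8.58, 9.23 and 8.30. Avp was the 1 raised gene of the 112 whose double knockout arrays all lay above WT. Cyba, a subunit gene of the phagocyte NADPH oxidase, and Apod, a lipocalin gene, had 80.4% and 82.6% absent, and both overlapped with WT. Their intervals reached 63.4% and 51.9% of the USP18ko rise, so part of a rise remains possible at this number of arrays. The differences of Cyba and Apod, 0.27 each, turned to -0.15 and -0.0011 without WT replicate 1.

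Levels below WT were frequent among the raised genes but small. The double knockout mean was lower than the WT mean for 103 of 112 raised genes (92.0%), where 6994 of all genes (56.4%) were lower. All double knockout arrays lay under all WT arrays for 30 of them (26.8%, against 10.3% of all genes), and above for 1 (0.893%, against 4.08%). The double knockout mean fell inside the range of the WT arrays for 51 (45.5%, against 65% of all genes). Rtp4, an interferon-induced chaperone gene for membrane receptors, stood lowest. It read 4.33, 4.06 and 4.61 in the double knockout and 5.35, 5.67 and 4.92 in WT, a difference of -0.98 (SE 0.28, adjusted p = 0.995). Its second probe set, with means of 3.20 in WT and 3.22 in the double knockout, differed by 0.02 and did not show the fall. At so low a signal, and without detection calls, it is not known whether a fall could be seen. C3ar1, the receptor gene for complement fragment C3a, read 4.99, 5.0 and 4.75 against 5.35, 5.53 and 5.31 in WT (-0.48, SE 0.15, adjusted p = 0.995), and its second probe set differed by 0.03. H2-Bl, a class I gene that is not among the raised genes, differed by -0.89 with overlap. It was -0.60 without WT replicate 3, and passed without WT replicate 2 (-1.29, adjusted p = 0.0436). Kcnj9, a potassium channel gene set apart by low IFNARko signals, differed by -0.94 with 6.55, 6.27 and 4.98 in the double knockout. Its other probe sets, of lower signal, differed by -0.29 and -0.08.

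The shift was also described by signal level. Many raised genes have low WT signals, with a median WT level of 5.35 against 7.50 over all genes, and no detection calls were used here, so a floor of signal limits how far below WT a level can be seen. Among raised genes with a WT mean under 5.39, the lower quartile of all genes, the median difference was -0.20 over 58 genes, against -0.05 over all genes of that range. Between there and the median of all genes it was -0.27 over 42 raised genes (-0.04 over all genes of that range), and above the median it was -0.20 over 12 (0.00034).

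The size of the shift varied with the arrays that were compared. Taking the median over the raised genes of each array's difference from the WT mean, the WT arrays stood at -0.07, 0.14 and -0.04, the double knockout arrays at -0.22, -0.26 and -0.15, and the IFNARko arrays at 0.14, -0.26 and -0.27. All 3 double knockout arrays lay below all 3 WT arrays, as did IFNARko replicates 2 and 3, but not IFNARko replicate 1, the array with the high beta-actin difference. Among arrays with low Eif2s3y (double knockout replicates 1 and 3 and WT replicate 1) the median difference of the raised genes was -0.10, with 71 of 112 lower (63.4%), while all genes had -0.08 and 63.4% lower. Among arrays with high Eif2s3y (double knockout replicate 2 and WT replicates 2 and 3) it was -0.36 with 102 lower (91.1%), against -0.02 and 53.9% over all genes. Xist was high in every array of the low set (11.21 and 11.34 in the double knockout, 10.17 in WT). In the high set it read 10.34 in double knockout replicate 2 but 5.26 and 5.11 in WT replicates 2 and 3. The high set was thus not matched in Xist. Each of these sets has 1 array on one side and was chosen after seeing the data, so the values describe those arrays only. In fits of all arrays with a sex-linked transcript as a covariate, 89 of 112 were lower with Eif2s3y (60.3% of all genes were) and 77 with Xist (66.3%). Without WT replicate 2 the double knockout mean was lower for 91 of 112 genes (59.7% of all genes were), and without double knockout replicate 2 for 99 (55.8%).

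**Figure D4:**
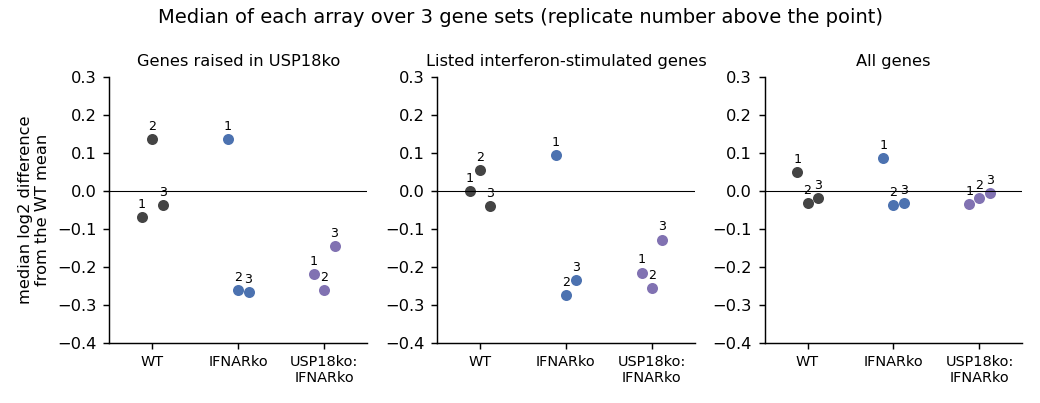
Median over a gene set of each array's log2 difference from the WT mean (vertical axis) for WT, IFNARko and the double knockout (horizontal axis); panels are the 112 raised genes, 55 listed interferon-stimulated genes and all genes, and numbers are replicates. Double knockout points lie at -0.26 to -0.13 in the first 2 panels and at -0.03 to -0.01 over all genes.

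The double knockout was also set beside loss of the receptor gene alone. Over the raised genes the median difference between the double knockout and IFNARko was -0.08, and 0 of 12393 genes were called between these genotypes by limma, with 1022 (8.25%) at an unadjusted p under 0.05. All IFNARko arrays lay under all WT arrays for 14 of the 112 raised genes (12.5%, against 6.74% of all genes). The median of -0.08 and this count both include IFNARko replicate 1. Over the raised genes that array stood at 0.14 from the WT mean, beside -0.26 and -0.27 in replicates 2 and 3. The double knockout arrays stood at -0.22, -0.26 and -0.15. Against WT, 1 gene (0.00807%) was called in IFNARko. These comparisons share arrays, so their values are set side by side only.

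A written list of interferon-stimulated genes was described in the same way. Of 71 listed genes 55 were measured, and none passed in either direction. The targeted gene Usp18 is among the 55 and is counted in each of the numbers of lower genes below. Their median difference was -0.25 (lowest -0.98, highest 0.44), with 45 of 55 lower in the mean (81.8%, against 56.4% of all genes). All double knockout arrays lay under all WT arrays for 20 (36.4%, against 10.3%) and above for 2 (3.64%, against 4.08%), and 11 were lower at an unadjusted p under 0.05 (2.57% of all genes were). The antiviral GTPase gene Mx2 read 5.14, 4.75 and 5.11 in the double knockout and 5.91, 5.38 and 5.42 in WT, a difference of -0.57 (SE 0.17, adjusted p = 0.995), although it was not raised in USP18ko by rule (0.46). The median over the list was -0.15 among arrays with low Eif2s3y and -0.31 among those with high Eif2s3y.

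Of 21 measured signalling genes of the receptor pathway 1 fell, Ifnar1, and the median was -0.07. The mean was lower for 15 of the 21, and all double knockout arrays lay under all WT arrays for 6 (28.6%, against 10.3% of all genes) and above for none. The targeted gene Ifnar1 is in both counts of lower genes. Irf9, a DNA-binding transcription factor of the pathway, read 6.24, 6.24 and 6.19 in the double knockout and 6.64, 6.55 and 6.59 in WT, a difference of -0.37 (SE 0.12, adjusted p = 0.995) without overlap. The kinase gene Jak1 differed by 0.28 with overlap. In the ISG15 pathway, with 4 measured members, the 1 under all WT arrays (25%, against 10.3% of all genes) was the targeted gene Usp18. The conjugating enzyme gene Ube2l6 read 4.43, 4.43 and 4.75 against 4.54, 4.76 and 4.65 in WT (-0.11), with overlap.

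Downstream gene groups had medians between -0.14 and -0.06. Of all genes, 10.3% lay under all WT arrays. Of 17 interferon-gamma receptor and response genes 5 did so (29.4%) and none lay above (median -0.13), among them the GTPase genes Irgm1 (-0.38) and Gbp6 (-0.25) and the transcription factor gene Irf1 (-0.22). Of 15 class I antigen presentation genes 1 lay under WT (6.67%, median -0.06), the class I heavy chain gene H2-K1, at 9.20, 9.03 and 9.09 against 9.39, 9.55 and 9.30. The other H2-K1 probe sets differed by -0.51, -0.32 and 0.16. Psmb8, an immunoproteasome subunit gene, differed by -0.37 with overlap. Of 18 chemokines 3 lay under WT (16.7%, median -0.14), Ccl4 at -0.26, Ccl5 at -0.24 and Ccl8 at -0.29, while Ccl3 (-0.50) and Ccl7 (-0.28) overlapped with WT. Ccl5 and Ccl8 were named after their values were seen. Of 13 complement genes 3 lay under WT (23.1%, median -0.08), including C3ar1 and the membrane regulator gene Cd59a (-0.32), while the properdin gene Cfp was at 0.28. No member of these 4 groups passed.

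Cell type markers gave few separations from WT. Over 16 microglia markers the median difference was -0.19, with 14 lower in the mean (87.5%, against 56.4% of all genes). The mean level of the list was 6.83 to 6.86 in the double knockout arrays, inside the WT range of 6.51 to 7.43. Selplg was the 1 microglia marker under all WT arrays (6.25%, against 10.3% of all genes), at 5.71, 5.71 and 5.73 against 5.95, 6.22 and 6.05 (-0.36). Aif1 (-0.38) and Fcrls (-0.29) overlapped with WT. Without WT replicate 2 these were -0.069 and -0.074, and without WT replicate 1 they were -0.78 and -0.52. The part of this list in the levels of the interferon-stimulated genes was not tested. Of 18 blood leukocyte markers 14 were lower in the mean (77.8%, against 56.4% of all genes), and the median was -0.11. All double knockout arrays lay under all WT arrays for 3 (16.7%, against 10.3%) and above for 1 (5.56%, against 4.08%). The 1 above was the neutrophil gene S100a9, at 4.74, 4.68 and 6.26 against 4.43, 4.39 and 4.27. For this gene 1 double knockout array was far from the others. The perivascular macrophage gene Ms4a7 differed by -0.33 with overlap, in a list of 10 with a median of 0.01.

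Markers of the vessel wall and the matrix had small positive medians. Of 19 endothelial and pericyte markers 3 had an unadjusted p under 0.05 and were higher, where 1.53% of all genes were (median 0.08). These were Vwf, von Willebrand factor, at 6.40, 6.19 and 6.26 against 6.19, 5.05 and 5.02 in WT, the VEGF receptor gene Kdr (0.37) and the channel regulator gene Abcc9 (0.27). Of 15 meningeal fibroblast genes 2 lay above all WT arrays (13.3%, against 4.08% of all genes), among them the collagen gene Col3a1 (0.36). The precursor list of 9 genes had a median of 0.13, led by the proteoglycan gene Vcan at 9.16, 9.15 and 9.26 against 8.88, 8.26 and 8.74 (0.56). WT replicate 1, the WT array with high Xist, was the highest WT array for Vwf, Kdr and Vcan, while replicate 2 was the highest for Abcc9. The IFNARko arrays, all low in Xist, read 9.28, 9.25 and 9.27 for Vcan, above WT replicate 1. For Kdr they read 7.58, 7.62 and 7.67, below it, and for Vwf 6.43, 5.89 and 6.34, on both sides of it. IFNARko medians against the same WT arrays were 0.26 for the endothelial and pericyte list and 0.26 for the meningeal list. The part of sex was not tested. In reactive astrocyte genes the median of the double knockout was -0.0033 over 20, with Serpina3n, a protease inhibitor gene, at -0.43 and Emp1 at 0.58. None of these genes passed.

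Lists of other brain cells had medians near 0 with a wider spread of members. Medians were 0.04 for 25 neuron and synapse genes, -0.01 for 16 astrocyte markers, -0.10 for 11 oligodendrocyte and myelin genes, 0.11 for 11 choroid plexus and ependymal genes, 0.09 for 10 pituitary genes, 0.01 for 14 activity-induced genes and -0.09 for 5 red blood cell genes. Neuron and synapse members ran from -0.54 to 0.97, with 2 below (8%, against 10.3% of all genes) and 1 above all WT arrays (4%, against 4.08%). Myelin members reached 0.93 and pituitary members 0.71. No member of these lists passed. Over 10 X-inactivation and Y-linked transcripts the median was 0.04, with Xist at 4.12 and Eif2s3y at -2.07, neither of which passed with this spread between WT arrays, and the X-linked demethylase gene Kdm5c at 0.43.

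**Figure D5:**
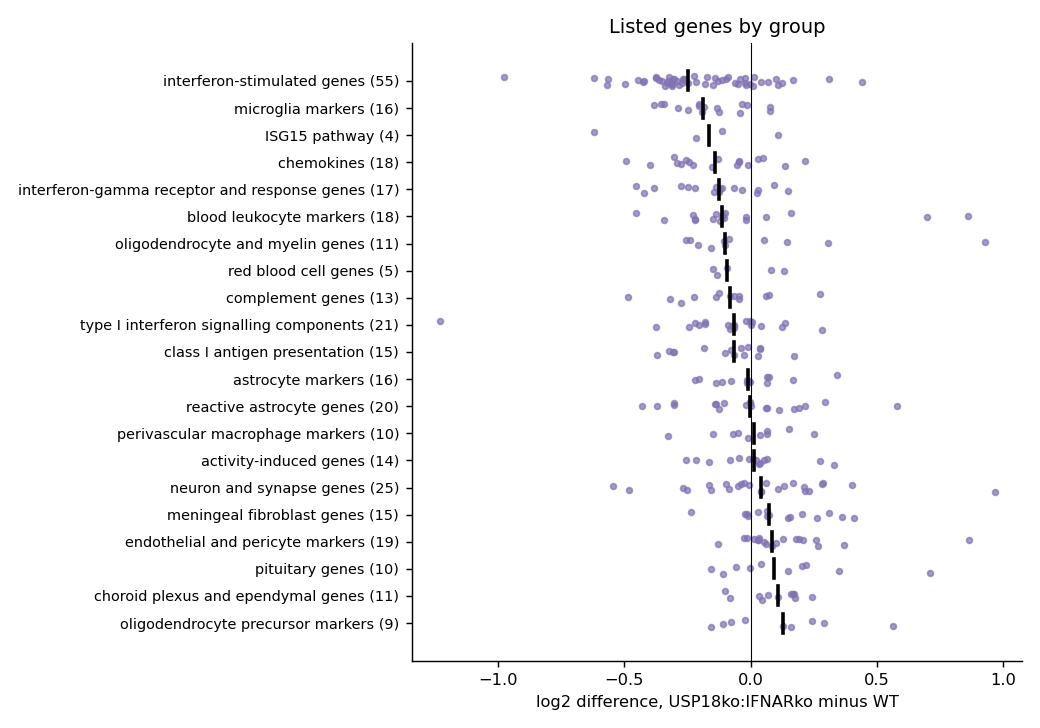
Log2 difference between the double knockout and WT (horizontal axis) of each measured member of the gene lists (rows, number of genes in brackets), with a black bar at the median of each list. The list of X-inactivation and Y-linked transcripts is not shown. The interferon-stimulated genes have the lowest median at -0.25 and the precursor markers the highest at 0.13.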

How the data were processed

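Whole-brain RNA of 12 samples was measured on 1-colour 3' expression arrays. The authors deposited 1 log2 signal for each probe set and array, made with the R package affy, per the submitters' processing notes. Sources used here do not give its version, background correction or normalization. Base 2 was inferred from the values (2.36 to 13.81). Of 22690 probe sets, 20380 had 1 gene in the platform annotation, 691 had several and 1555 were not listed. Each of 12393 genes was represented by its brightest probe set, judged by the mean of 12 arrays. The 2246 probe sets without 1 gene were fitted apart, and 0 passed between the double knockout and WT by limma, with 100 at an unadjusted p under 0.05.

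Genotypes were compared with limma 3.58.1 (R 4.3.3), fitting genotype alone to all 12 arrays, two-sided, with Benjamini-Hochberg adjustment over all genes and a threshold of 0.05. With 3 arrays a group the smallest exact permutation p is 0.1, so no such test was used. Intervals are unadjusted 95% intervals from the fit. Gene lists (22, with 73 of their 425 entries not measured) and members were chosen with earlier results of these data known, and are described by counts and medians without a list test. Named genes are the targeted and called genes, the 10 of smallest p, the 6 largest differences in each direction without overlap, the extremes of the genes chosen by USP18ko against IFNARko, and up to 3 of smallest p in each list. Deviations of same-numbered double knockout and WT replicates from their group means correlated at 0.04, 0.03 and -0.02, so numbers were not taken as pairs. Alternatives were other probe set rules, normalizations, variance models and filters, sex-linked covariates, a replicate block and each array left out.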

Additional observations from a re-analysis of the deposited data

How the results depend on the processing

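The 2 genes called against WT became 0 with each probe set by itself, with the dimmer genes removed at the 40th percentile, with median centring and with the replicate block, and 1 with quantile normalization, with Eif2s3y as a covariate and when IFNARko replicate 1 and double knockout replicate 2 were left out together (chosen after seeing the data). Xist as a covariate gave 297, of which 280 were higher, and moved the median of all genes to -0.10; WT replicate 1 is the only WT array with high Xist, and no double knockout array is low. Leaving out single arrays gave 0 to 3. The 187 genes called against USP18ko (3 higher) became 37 with the percentile filter, 500 with array weights (105 higher), 287 with only the 2 groups compared (34 higher), 124 with Eif2s3y and 195 with Xist as a covariate (116 higher), and 139 to 239 without single arrays. The replicate block left 178, medians of -0.25 for the interferon-stimulated genes and -0.23 for the 132 members, and no call of Ifnar1 or Pnpla3.

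The median of the interferon-stimulated genes, -0.25, was -0.18 with averaged probe sets, -0.18 with Xist as a covariate, -0.15 in arrays with low Eif2s3y and -0.31 in those with high Eif2s3y, and -0.25 to -0.16 without single arrays, the last without WT replicate 2. That of the 132 members, -0.23, was -0.11 and -0.34 in these sets of arrays, and -0.28 to -0.16 without single arrays. The percent of the USP18ko rise absent was 105 and 116 there, and 106.6 to 112.9 without single arrays. Both splits by Eif2s3y were chosen after seeing the data, and the arrays with high Eif2s3y were not matched in Xist. The percentile filter left 12 interferon-stimulated genes, 8 lower in the mean, and 29 raised genes, 23 lower. Of all genes left by it, 49.8% were lower. Fewer genes are tested there. Xist as a covariate reversed Ifi27l2a (0.19), Ccl12 (0.13), Fam32a (-0.18), Jak1 (-0.068), Aif1 (0.53), Fcrls (0.29) and Kdr (-0.15). Without single arrays the range was -0.0011 to 0.61 for Apod, -0.15 to 0.61 for Cyba, -0.097 to 0.41 for Fam32a, -0.15 to 0.47 for Ocel1 and -0.35 to 2.49 for Mobp. The cause of these changes was not tested. The 3 arrays per group limit precision.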
